A study of Mus musculus with 32 samples.

Results

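The 10 genes of the piRNA pathway analysed here, Ddx4, Mael, Piwil1, Piwil2, Piwil4, Tdrd1, Tdrd6, Tdrd9, Asz1 and Mov10l1, were followed by their DNA methylation signal in mouse organs. They are the 10 rows with these symbols among 27179 genes in a table from methylated DNA immunoprecipitation and sequencing (MeDIP-seq), which captures DNA fragments bearing 5-methylcytosine (5mC) by antibody and counts them. The organs were brain, heart, kidney and liver, each held as FFPE tissue (fixed in 10% formalin and embedded in paraffin) and as flash-frozen tissue. The table has 8 columns, FFPE and frozen for each organ, and each column is called a library here. The labels list 2 antibody samples per organ and preservation, but the columns carry no replicate number, so every group has 1 library. Neither strain, age and sex nor whether samples came from separate animals was given in the labels. The columns were read as antibody samples because the table was deposited for MeDIP-seq, and the Input samples (DNA before precipitation) were not used here.

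PIWI proteins are Argonautes of the germ line that carry piRNAs, short RNAs that guide the silencing of transposons. The pathway works in germ granules and at the mitochondrial surface of germ cells, where Tudor proteins hold PIWI proteins by their methylated arginines and helicases feed precursor RNA into processing. Most of these genes are active in testis and silent in somatic organs, and CpG-rich promoters of germline genes are a textbook case of somatic DNA methylation. The organs measured here are somatic, so the values describe 5mC on these genes outside the germ line and say nothing of their expression.

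The signal is the deposited log2 CPM, which gives reads on a gene relative to library size, after the authors' scaling between libraries. Reads on all genes totalled 2164158 to 3699218 per library. In a single library each of the 10 genes held between 41 and 1216 reads, all above the 3 reads that a count of 0 allows. All 10 had at least 1 CPM in at least 2 libraries and were tested. The labels do not say what was counted, exons or gene bodies, but reads did not follow gene span. Dmd, which spans 2390387 bases, had 74 to 211 reads, whereas Ttn, which spans 278578 bases, had 6250 to 16468 reads. Exon lengths were not used here, so levels are compared between libraries and not between genes.

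Organ labels were checked on 10 marker genes per cell type. Hepatocyte markers were lower in liver for 9 of 10 (median log2 difference -1.41), against 7.42% of all tested genes. Cardiomyocyte markers were lower in heart for 4 of 10 (-0.75), against 1.97%. Neuron markers were lower in brain for 5 of 10 (-0.50), against 12.8%, while 4 of 10 had a positive difference there. No kidney tubule marker passed the test in kidney (-0.08), so the kidney label has no such mark here. The kidney libraries also stood apart from each other: across genes, which are not independent replicates, FFPE and frozen kidney correlated at r = 0.862, against 0.903 for brain, 0.917 for heart and 0.913 for liver. FFPE kidney correlated more with FFPE heart (0.915) and FFPE liver (0.91) than with frozen kidney. Frozen kidney correlated more with frozen liver (0.871) than with FFPE kidney. Each organ result below is therefore also given without both kidney libraries where that changes the call. Markers of leukocytes, found in every organ, passed the test as higher in brain for 2 of 10 and as lower in liver for 2 of 10. Endothelial markers passed as higher in brain for 2, lower in heart for 3, and in liver higher for 3 and lower for 2. Of all tested genes, 8.61% were higher in brain, 1.97% lower in heart, and 11.8% higher and 7.42% lower in liver. The part of leukocytes and endothelial cells in the results on the piRNA genes was not tested. A tissue sample mixes cell types, so a change in cell makeup and a change of 5mC within cells cannot be told apart.

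The sequence before the start site shows how many CpGs lie in the promoters of these genes. RefSeq promoters on GRCm38.p6, the assembly behind mm10, were matched for 8 of the 10 genes, all but Piwil2 and Tdrd6. Within the 250 bases before the start site the 8 genes had 8 to 31 CpGs, with a median of 15.5, while the median over 32851 RefSeq promoter windows of that length was 6. Those of Tdrd1 and Asz1 are shown because these genes differed between organs in the tests below, and that of Mael because it was the gene highest in kidney and holds both motifs described next. Only bases before the annotated 5′ end of the gene are printed, 5′ to 3′ on the gene's strand, with CpGs in capitals.

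Tdrd1 (chr19:56825959-56826170, strand +): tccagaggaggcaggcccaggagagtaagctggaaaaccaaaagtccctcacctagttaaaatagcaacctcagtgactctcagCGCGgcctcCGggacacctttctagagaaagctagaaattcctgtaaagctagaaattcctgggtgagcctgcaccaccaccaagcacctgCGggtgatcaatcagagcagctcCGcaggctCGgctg
Asz1 (chr6:18109062-18109311, strand -): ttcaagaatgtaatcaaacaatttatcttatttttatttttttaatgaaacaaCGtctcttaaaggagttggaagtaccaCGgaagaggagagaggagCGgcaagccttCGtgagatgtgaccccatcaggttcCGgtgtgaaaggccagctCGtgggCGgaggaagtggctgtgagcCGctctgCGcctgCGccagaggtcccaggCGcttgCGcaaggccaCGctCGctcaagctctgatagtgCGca
Mael (chr1:166238745-166238994, strand -): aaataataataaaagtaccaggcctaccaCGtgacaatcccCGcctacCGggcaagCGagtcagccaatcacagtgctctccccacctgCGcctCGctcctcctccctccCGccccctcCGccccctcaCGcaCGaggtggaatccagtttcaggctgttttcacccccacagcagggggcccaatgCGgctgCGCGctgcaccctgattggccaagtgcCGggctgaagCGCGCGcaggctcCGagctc

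The full Ddx4 window held 31 CpGs at 70.4% GC, that of Asz1 15 CpGs at 52.0% GC and that of Tdrd1 11 CpGs at 57.6% GC. The Mael window held 18 CpGs at 64.0% GC. Of the Tdrd1 window, 38 bases lie past the gene's annotated 5′ end and are not printed, and the only RefSeq start site matched for Ddx4 lies 323 bases inside the annotated gene, so its window is not printed at all. The E-box CACGTG, which is its own reverse complement and is bound by MAX with partners such as MGA, a repressor of germline genes, occurred in 6 of the 8 windows (Ddx4, Mael, Piwil1, Tdrd1, Tdrd9 and Mov10l1), against 6.02% of all windows. In Mael it begins 223 bases before the start site. In Tdrd1 it begins 11 bases before the start site, in the stretch that is not printed. Piwil1 and Tdrd9 have 2 copies each. The motif GCGGGA, searched on both strands and recognised by E2F proteins such as E2F6, occurred in the Ddx4 and Mael windows, against 16.9% of all windows. The motifs can share at most 1 base where they meet. Both motifs contain a CpG. The shares are over all windows, of which 37.8% held 10 or more CpGs, and were not matched to the CpG content of these genes. These matches describe letters only. The table gives 1 value per gene. If exons or gene bodies were counted, the bases before the annotated 5′ end were no part of it. The whole Ddx4 window, however, lies inside the annotated gene. So do 175 bases of the Piwil1 window, 103 of Mov10l1, 71 of Tdrd9 and 38 of Tdrd1. Those bases could be part of the value. 5mC of the promoter was thus not measured apart from the rest of the gene.

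**Figure D1:**
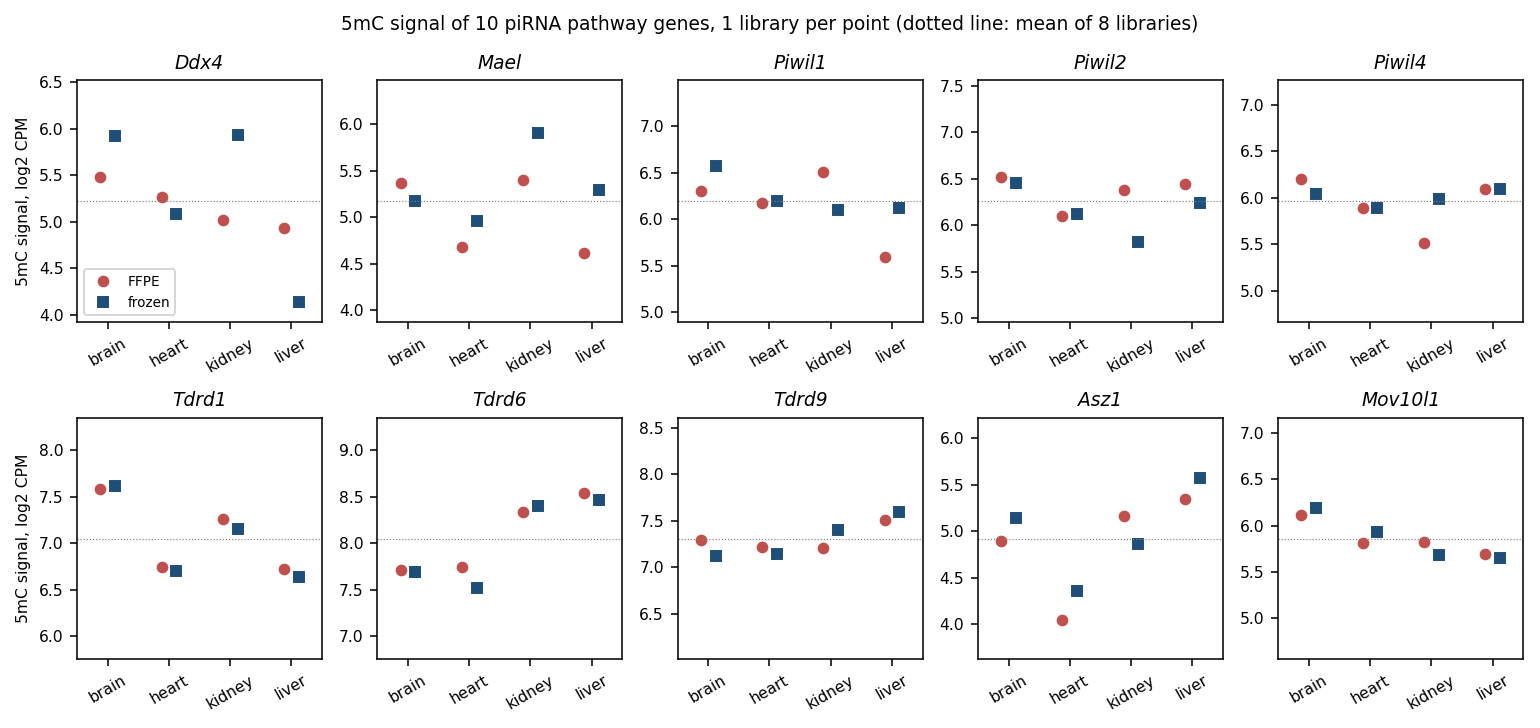
5mC signal (log2 CPM) of each of the 10 genes by organ, with the FFPE library as a circle left of the frozen library as a square; all panels have the same height in log2 units and the dotted line is the mean of 8 libraries. Tdrd1 is highest in both brain libraries, Tdrd6, Tdrd9 and Asz1 in both liver libraries, and Ddx4 shows wide gaps between FFPE and frozen kidney and liver.

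The 10 genes did not share 1 organ pattern. Across the 8 libraries a member's highest and lowest values lay 0.47 (Tdrd9) to 1.78 (Ddx4) log2 units apart, with a median of 0.98, while the median was 1.07 over the 9301 genes of like mean signal. Of the 45 pairs of members, 26 had a positive and 19 a negative Pearson r over the 8 libraries, with a median of 0.14. The libraries share organs and scaling, so these correlations only describe the 8 libraries. The pairs with the highest r were Tdrd6 with Tdrd9 (0.80) and Tdrd1 with Mov10l1 (0.74), and that with the lowest was Tdrd6 with Mov10l1 (-0.79). Brain was the highest organ by its mean for Ddx4, Piwil1, Piwil2, Piwil4, Tdrd1 and Mov10l1, liver for Tdrd6, Tdrd9 and Asz1, and kidney for Mael. Only in Piwil2, Tdrd1 and Mov10l1 did both brain libraries lie above all others, and only in Mael both kidney libraries. Reads on the 10 genes together came to 807 and 775 CPM in FFPE and frozen heart, 986 and 993 in brain, 1011 and 1037 in kidney and 1009 and 1014 in liver with the authors' scaling. As CPM of all reads counted, without that scaling, heart and FFPE liver were lowest (852 and 835 in FFPE and frozen heart, 858 in FFPE liver and 939 in frozen liver) and brain highest (1083 and 1080, against 988 and 991 in kidney). The rank of brain and liver in this sum thus depended on the scaling. The sum also leans on genes with many reads. Tdrd6 alone held 703 of the 3302 reads in FFPE brain and 1216 of the 3472 in frozen liver.

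Organs were compared with limma on all 25982 tested genes, each organ against the average of the others, with Benjamini-Hochberg adjustment over all genes and a threshold of 0.05. The residual has 3 degrees of freedom and measures how far organ differences changed with preservation. Errors given after ± are standard errors of that fit. The 4 organs share 1 set of libraries, so a gene high in 1 organ is drawn low in the others. The median difference of all tested genes was 0.11 in brain, 0.07 in heart, -0.02 in kidney and -0.10 in liver, and under total-read scaling, without the authors' scaling factors, it was 0.28, 0.19, -0.08 and -0.33. A member's difference is to be read against these medians.

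In brain, Tdrd1 rose and Tdrd6 fell. Tdrd1, a Tudor protein that binds PIWI proteins at the material between germ cell mitochondria, had 7.58 and 7.61 log2 CPM in FFPE and frozen brain, against 6.74 and 6.70 in heart, 7.26 and 7.15 in kidney and 6.72 and 6.63 in liver. Both brain libraries lay above the other 6, and the kidney libraries above those of heart and liver. The difference was 0.73 ± 0.13, or 1.66-fold (limma adjusted p = 0.00166; Entrez 83561, chromosome 19, 56826171 to 56870012). Under every scaling tried, Tdrd1 stayed higher in brain (0.58 to 1.13), and its call was lost without the frozen brain library (0.68, adjusted p = 0.0895) and without the variance trend (adjusted p = 0.0875).

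Tdrd6, a scaffold of the chromatoid body of spermatids, had 7.71 and 7.69 log2 CPM in FFPE and frozen brain, against 7.75 and 7.52 in heart, 8.34 and 8.40 in kidney and 8.54 and 8.47 in liver. Brain overlapped heart, and both lay below kidney and liver. It fell by 0.47 ± 0.13 in brain (limma adjusted p = 0.0159), except under quantile normalization, where the difference was 0.01 (adjusted p = 0.97). The call was also lost without FFPE brain, frozen brain or FFPE heart (-0.44, -0.50 and -0.43, adjusted p = 0.169, 0.178 and 0.0625) and under total-read scaling (-0.30, adjusted p = 0.12).

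Of the 10 genes, 1 of 10 was called higher and 1 of 10 lower in brain, against 8.61% and 12.8% of all tested genes (21.4% in either direction). Both brain libraries lay outside the range of the other 6 for 3 of 10 members, against 28.3% of tested genes. These shares are near those of all genes. The PIWI genes had positive brain differences without passing the test: 0.32 ± 0.18 for Piwil1 (adjusted p = 0.212, and 0.44 with adjusted p = 0.0394 without FFPE kidney), 0.30 ± 0.16 for Piwil2 (adjusted p = 0.191) and 0.21 ± 0.18 for Piwil4 (adjusted p = 0.412), all by limma. Ddx4 stood at 0.64 ± 0.27 (adjusted p = 0.0998) and passed without both kidney libraries (0.84, adjusted p = 0.00775), without frozen kidney alone (0.82, adjusted p = 0.0109) and without FFPE liver (0.83, adjusted p = 0.0332). Piwil1 had 6.30 and 6.57 log2 CPM in FFPE and frozen brain, against 6.17 and 6.19 in heart, 6.51 and 6.10 in kidney and 5.59 and 6.12 in liver, so brain overlapped kidney. Piwil2 had 6.52 and 6.46 in FFPE and frozen brain, against 6.10 and 6.12 in heart, 6.38 and 5.82 in kidney and 6.44 and 6.24 in liver, and brain lay above the rest by less than the gap within kidney. Piwil4 had 6.20 and 6.04 in FFPE and frozen brain, against 5.89 in both heart libraries, 5.51 and 5.99 in kidney and 6.10 in both liver libraries. Mov10l1, the helicase that starts precursor processing, stood at 0.39 ± 0.17 (adjusted p = 0.107), with 6.11 and 6.19 log2 CPM in FFPE and frozen brain, against 5.65 to 5.93 in the other 6 libraries. Under quantile normalization 5 members passed as higher in brain (Ddx4, Piwil1, Piwil2, Tdrd1 and Mov10l1), and under total-read scaling 3 did (Ddx4, Tdrd1 and Mov10l1).

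**Figure D2:**
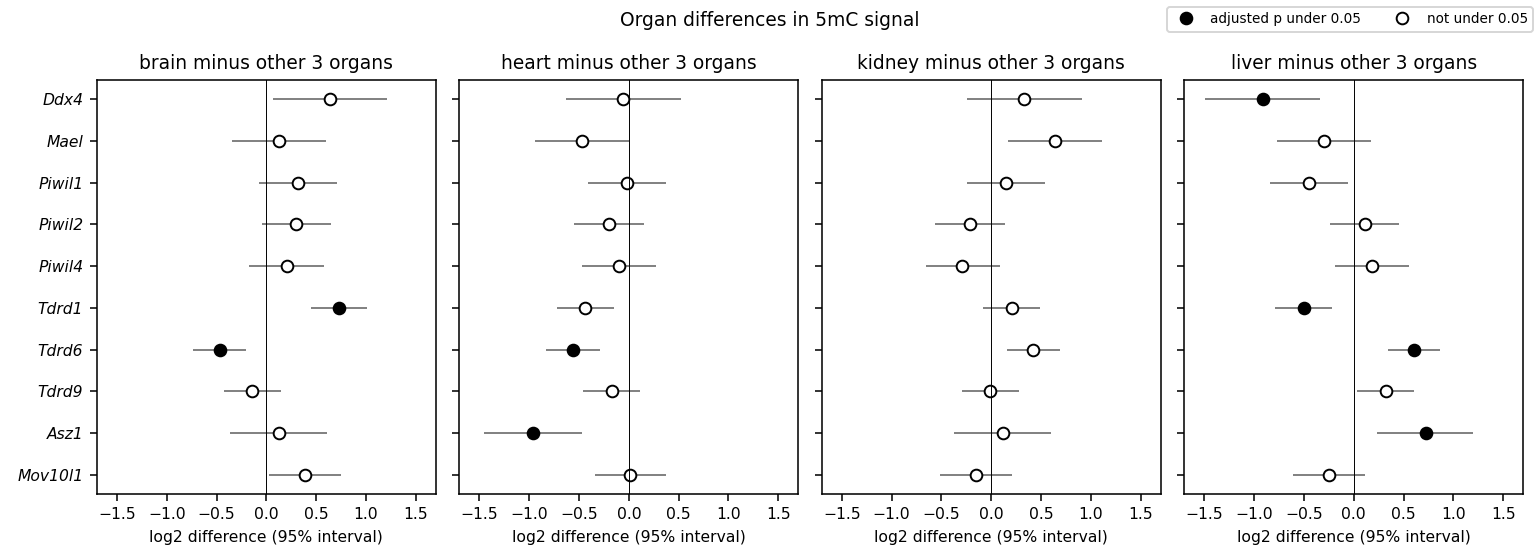
Log2 difference of each gene between 1 organ and the mean of the other 3, with 95% intervals from the limma fit; filled points have an adjusted p under 0.05. Filled points are Tdrd1 (0.73) and Tdrd6 (-0.47) in brain, Tdrd6 and Asz1 in heart, none in kidney, and Ddx4, Tdrd1, Tdrd6 and Asz1 in liver.

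In heart, Asz1 and Tdrd6 fell and no member rose, against 0.162% of tested genes called higher. Asz1, which encodes GASZ, an ankyrin repeat protein that anchors the pathway to germ cell mitochondria, had 4.04 and 4.36 log2 CPM in FFPE and frozen heart, against 4.89 and 5.14 in brain, 5.16 and 4.86 in kidney and 5.35 and 5.57 in liver. Both heart libraries, with 41 and 58 reads, lay below all others. The difference was -0.96 ± 0.23, or lower by a factor of 1.94 (limma, adjusted p = 0.0403, Entrez 74068, chromosome 6, 18050964 to 18109061). Tdrd6 fell by 0.56 ± 0.13 (adjusted p = 0.0298; Entrez 210510, chromosome 17, 43615334 to 43631846), with 542 and 521 reads in FFPE and frozen heart.

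Of the 10 genes, 2 were called lower in heart, against 1.97% of tested genes called lower and 2.14% called in either direction, and 1 of 10 had heart libraries outside the range of the others, against 8.25%. 9 of 10 members had a negative difference, against 11520 of 25982 tested genes, and Mov10l1 stood at 0.01. The median of the members was -0.19, against 0.07 for all tested genes. Tdrd1 stood at -0.44 ± 0.13 (limma adjusted p = 0.116) and passed as lower with libraries centred on their medians (-0.51, adjusted p = 0.046), with array weights (-0.44, adjusted p = 0.0326) and without FFPE kidney (-0.42, adjusted p = 0.0496). Mael, a protein of transposon silencing, stood at -0.47 ± 0.22 (adjusted p = 0.34). The calls of Tdrd6 and Asz1 kept their sign but were lost in 11 of 19 alternatives each, including without either heart library (adjusted p = 0.253 and 0.781 for Tdrd6 without FFPE and frozen heart, 0.521 and 0.543 for Asz1). They were lost as well without any 1 of the brain and liver libraries (adjusted p = 0.0571 to 0.0864 for Tdrd6 and 0.0743 to 0.103 for Asz1) and under total-read scaling (0.141 and 0.113).

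In kidney no member passed the test, against 1.46% of tested genes (0.897% higher and 0.566% lower), by limma, and 2 did at an unadjusted p under 0.05, Mael and Tdrd6. Mael had 5.40 and 5.90 log2 CPM in FFPE and frozen kidney, against 5.37 and 5.17 in brain, 4.68 and 4.96 in heart and 4.61 and 5.29 in liver. Both kidney libraries lay above the other 6, FFPE kidney only just above FFPE brain, and the difference was 0.64 ± 0.22 (limma adjusted p = 0.14; 95% interval 0.17 to 1.11). Tdrd6 stood at 0.42 ± 0.13 (adjusted p = 0.0942) and passed with voom weights (0.44, adjusted p = 0.0415) and without FFPE kidney (0.51, adjusted p = 0.0343). Members with kidney libraries outside the range of the others numbered 1 of 10, against 7.91% of tested genes.

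In liver, Tdrd6 and Asz1 rose and Tdrd1 and Ddx4 fell. Tdrd6 was 1.52-fold higher (0.60 ± 0.13, limma adjusted p = 0.00348), with 983 and 1216 reads in FFPE and frozen liver. Asz1 was 1.64-fold higher (0.72 ± 0.23, adjusted p = 0.039). Both liver libraries lay above the other 6 in each of these genes. Tdrd1 fell by 0.50 ± 0.13 (adjusted p = 0.0155), with liver libraries that overlapped those of heart. Ddx4, the germ cell helicase also called MVH or VASA, had 4.93 and 4.14 log2 CPM in FFPE and frozen liver, against 5.48 and 5.92 in brain, 5.27 and 5.08 in heart and 5.02 and 5.93 in kidney. Both liver libraries were the lowest, and the difference was -0.91 ± 0.27, or 1.88-fold lower (adjusted p = 0.0267; Entrez 13206, chromosome 13, 112598333 to 112652633). It was -0.33 in FFPE and -1.50 in frozen tissue, and without the frozen liver library the call was lost (adjusted p = 0.621).

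Members called in liver numbered 2 higher and 2 lower of 10, against 11.8% and 7.42% of tested genes (19.2% in either direction). Liver libraries lay outside the range of the others for 4 of 10 (Ddx4, Tdrd6, Tdrd9 and Asz1), against 22% of tested genes. Tdrd9, a Tudor helicase that works with PIWIL4, had 7.51 and 7.59 log2 CPM in FFPE and frozen liver, against 7.12 to 7.40 in the others (0.32 ± 0.14, limma adjusted p = 0.115). It passed as higher without both kidney libraries (0.35, adjusted p = 0.0342), without frozen kidney alone (0.36, adjusted p = 0.0397) and with libraries centred on their medians (0.52, adjusted p = 0.0106). Rd3l lies inside Tdrd9, so reads in that stretch could be counted for either gene or for none. Piwil1 stood at -0.45 ± 0.18 (adjusted p = 0.0985), while Piwil2 and Piwil4 stood at 0.11 and 0.18. Piwil1 passed as lower without both kidney libraries (-0.45, adjusted p = 0.0313), without frozen kidney alone (-0.57, adjusted p = 0.0105), under quantile normalization (-0.67, adjusted p = 0.022) and under total-read scaling (-0.68, adjusted p = 0.0231). Both rises were lost under total-read scaling (Tdrd6 0.37, adjusted p = 0.0607; Asz1 0.49, adjusted p = 0.161) and quantile normalization (0.05 and 0.67, adjusted p = 0.863 and 0.0789), and both falls with libraries centred on their medians (Tdrd1 -0.30, Ddx4 -0.72). Without FFPE or frozen liver the calls of Tdrd6 (adjusted p = 0.0728 and 0.0697), Asz1 (0.201 and 0.297) and Tdrd1 (0.133 and 0.169) were lost, as was that of Asz1 without any 1 brain or heart library (0.0639 to 0.0941) and that of Ddx4 without frozen brain (0.0667) or FFPE heart (0.0821).

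Without both kidney libraries all 8 organ calls above were still made, with Tdrd1 at 0.90 and Tdrd6 at -0.37 in brain, Tdrd6 at -0.47 and Asz1 at -1.04 in heart, and Tdrd6 at 0.84, Asz1 at 0.85, Tdrd1 at -0.49 and Ddx4 at -0.90 in liver, and 3 were gained, Ddx4 in brain and Piwil1 and Tdrd9 in liver. Every organ call rested on the variance trend, by which limma takes the expected spread of a gene from genes of like mean. Without it none of the 25982 genes was called in any organ comparison, although 2851 (heart) to 7872 (brain) had an unadjusted p under 0.05, and among the members 2 in brain, 2 in heart, 1 in kidney and 3 in liver.

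FFPE and frozen tissue did not differ by the test in any of the 10 genes, against 1.35% of tested genes called (0.62% higher and 0.735% lower), by limma, and none of the 10 had an unadjusted p under 0.05. In 0 of 10 did all 4 FFPE libraries lie to 1 side of all 4 frozen libraries, against 3.15% of tested genes. The fitted differences, FFPE minus frozen, ran from -0.31 ± 0.19 for Mael (adjusted p = 0.603; 95% interval -0.72 to 0.10) to 0.19 ± 0.14 for Piwil2 (adjusted p = 0.68; -0.11 to 0.50). The narrowest interval, that of Tdrd6, covered -0.16 to 0.30. That of Ddx4, the widest, covered -0.59 to 0.40.

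Gaps between FFPE and frozen tissue were also taken within single organs, where opposite signs do not cancel as they do in the fitted average. Over the 40 pairs of FFPE and frozen libraries, 10 genes in 4 organs, the gap had a median size of 0.18 log2 units, and its exact 95% interval for counting error, from the 2 read counts, excluded 0 in 11. Of these 11, 5 were in kidney, 3 in liver, 2 in brain and 1 in heart. Such intervals compare 2 libraries and not the 2 kinds of tissue, and they leave out PCR copying, so they cover counting error alone. The share of all genes with such an interval was not computed, so the counts are not read as a trait of the 10 genes. Kidney also had the least alike FFPE and frozen libraries over all genes (r = 0.862). Ddx4 had 68 and 200 reads in FFPE and frozen kidney (-0.91, counting interval -1.34 to -0.51), 80 and 60 in liver (0.79, 0.29 to 1.30), 149 and 145 in brain (-0.44, -0.78 to -0.10) and 97 and 96 in heart (0.19, -0.23 to 0.62). Its sign thus differed between organs, and with 1 library per group this difference was not tested. Piwil1, the PIWI protein of meiotic and later male germ cells, was higher in FFPE than in frozen kidney (0.42, 0.13 to 0.70) and lower in FFPE than in frozen liver (-0.53, -0.85 to -0.21). Piwil2, active from fetal germ cells on, was higher in FFPE kidney (0.56, 0.25 to 0.86), and Piwil4, the fetal nuclear PIWI protein that directs transposon methylation, was lower there (-0.48, -0.85 to -0.13). Tdrd1 had gaps of -0.03 to 0.10 in the 4 organs and Mov10l1 of -0.12 to 0.14.

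**Figure D3:**
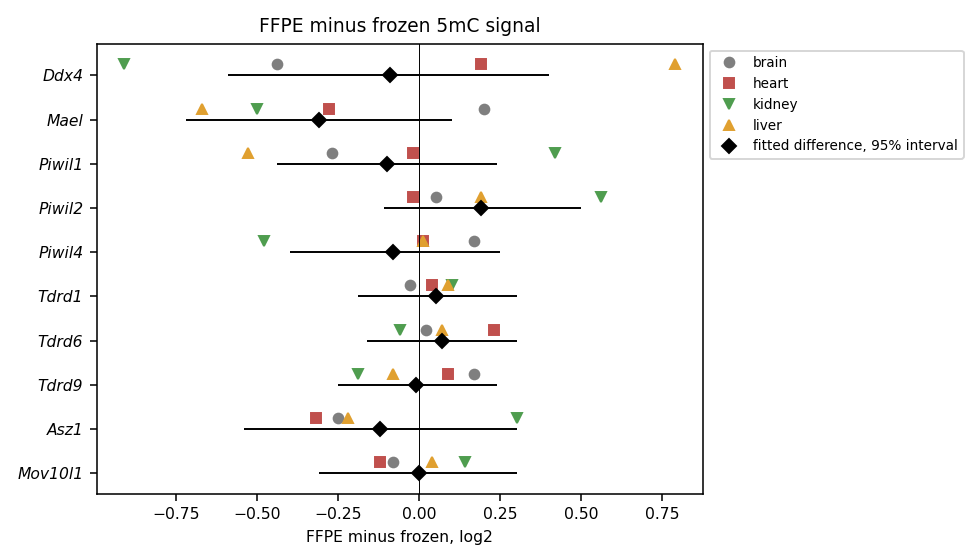
FFPE minus frozen log2 difference of each gene, with the fitted difference and its 95% interval as a diamond and the single organs as symbols just above it. All 10 intervals include 0, while Ddx4 runs from -0.91 in kidney to 0.79 in liver.

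Neighbouring genes show whether an organ pattern ran along the chromosome. Tdrd1 lies 3972 bases from Ccdc186 and 4404 bases from Vwa2, and neither shared its high brain values: Ccdc186 had 5.44 and 5.16 log2 CPM in FFPE and frozen brain, against 5.21 to 5.98 elsewhere, and Vwa2 had 6.54 and 5.94, against 5.76 to 6.68 elsewhere. Next to Tdrd6, Slc25a27, which encodes a mitochondrial carrier and lies 5893 bases away, was likewise higher in all kidney and liver libraries than in any brain or heart library. It rose in liver (0.87 ± 0.19, limma adjusted p = 0.00493) and fell in brain (-0.97 ± 0.19, adjusted p = 0.0027), while Pla2g7, 3132 bases away on the other side, passed in no organ. Beside Ddx4, Il31ra, a cytokine receptor gene 17601 bases away, fell in liver (-1.18 ± 0.23, adjusted p = 0.00203) and rose in brain (1.01 ± 0.23, adjusted p = 0.00605), whereas Slc38a9, 3556 bases away, passed in none. Wnt2 and Cftr, the genes flanking Asz1, passed in no organ. Mlc1 lies 198 bases from Mov10l1 and rose in liver (0.51, adjusted p = 0.0441), where Mov10l1 stood at -0.25. Of the genes beside the remaining members, Ildr2 near Mael rose in brain (0.78) and fell in liver (-0.55), Rimbp2 near Piwil1 fell in brain (-0.79), and Polr3d near Piwil2 fell in brain (-0.80) and rose in liver (0.94). Fut4 near Piwil4 fell in heart (-0.86) and rose in liver (0.78). Fzd10, the nearest gene on the other side of Piwil1 at 131978 bases, rose in brain (4.29) and fell in liver (-3.56) on 0 to 51 reads.

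**Figure D4:**
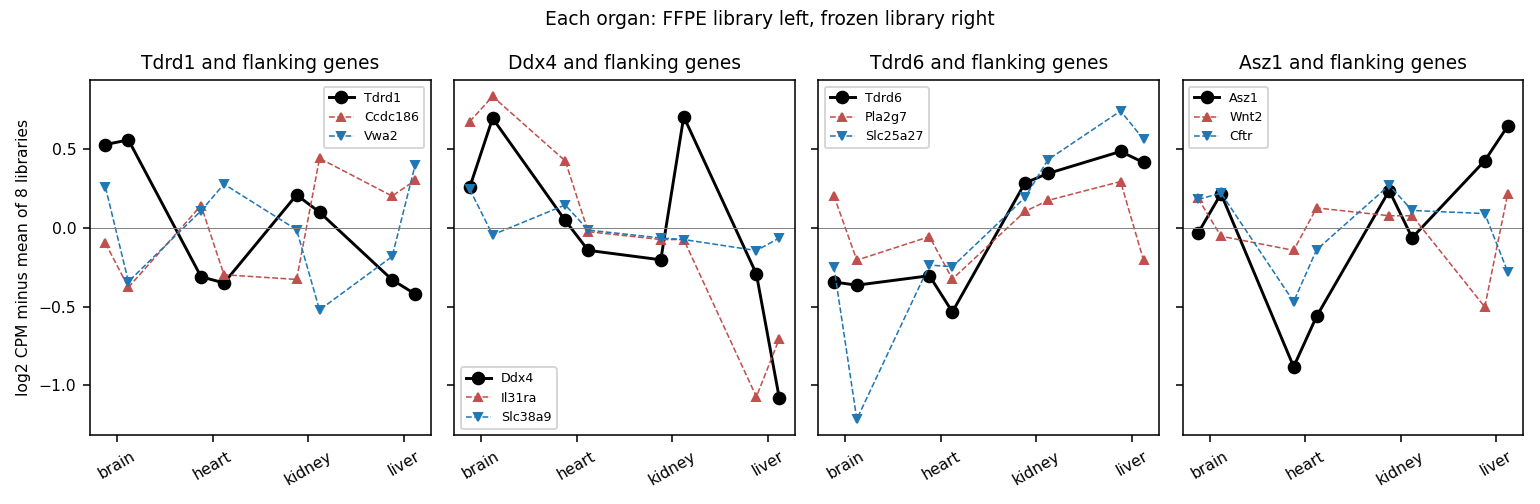
Log2 CPM minus the gene's mean over 8 libraries for Tdrd1, Ddx4, Tdrd6 and Asz1 (black) and the nearest genes on each side (coloured), FFPE left of frozen in each organ; lines only guide the eye. Slc25a27 is high where Tdrd6 is, in kidney and liver, Il31ra shares with Ddx4 the low liver values but not the high frozen kidney value, and Ccdc186 and Vwa2 do not follow Tdrd1.

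Of 25 further genes of the pathway, 23 were in the table and were tested. In brain 3 rose and 5 fell, against 8.61% and 12.8% of tested genes. Tex15 (1.27 ± 0.24, limma adjusted p = 0.00177) and Spocd1 (1.14 ± 0.26, adjusted p = 0.00586), whose proteins act with PIWIL4 in transposon methylation, rose together with Mybl1 (1.14 ± 0.27, adjusted p = 0.00852), the transcription factor of pachytene piRNA clusters. Fkbp6, a co-chaperone of PIWI loading, fell (-0.71), as did Btbd18, which drives transcription of piRNA clusters (-0.67), Pnldc1, the trimming exonuclease (-0.55), and Prmt5 and Wdr77 (-0.59 and -0.90), the arginine methyltransferase pair that is active in every cell. Heart had 3 lower and 0 higher (Btbd18 -1.02, Fkbp6 -0.85, Tdrd12 -0.71), against 1.97% and 0.162% of tested genes. Kidney had 2 higher and 0 lower (Henmt1, the piRNA end methyltransferase, 0.86, and Btbd18 0.80), against 0.897% and 0.566%.

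In liver 5 of the 23 rose (Fkbp6 0.92, Btbd18 0.90, Prmt5 0.75, Tdrd12 0.71 and Pnldc1 0.53) and 2 fell (Spocd1 -1.19 and Mybl1 -0.94), against 11.8% and 7.42% of tested genes. The median difference of the 23 was 0.04 in brain, -0.28 in heart, 0.17 in kidney and 0.03 in liver, and no gene of them passed between FFPE and frozen tissue, with 3 at an unadjusted p under 0.05.

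The somatic relatives of the pathway were mostly lower in brain. The list held 15 Argonaute and microRNA pathway genes, which are active in all cells. In brain 9 of the 15 fell and 0 rose, against 12.8% and 8.61% of tested genes. Their median was -0.55, against 0.26 for the 10 piRNA genes and 0.11 for all tested genes. The smallest p were those of Tnrc6c (-0.92 ± 0.14, limma adjusted p = 0.000622), a partner of Argonaute proteins, the nuclease genes Drosha (-0.79) and Dicer1 (-0.89), and Ago1 (-0.88). In liver 6 of the 15 rose and 0 fell, against 11.8% and 7.42% of tested genes (median 0.23, against -0.10 for all tested genes). Among those that rose were Drosha, Ago2, Tnrc6c and Dgcr8 (0.84, 0.69, 0.77 and 0.85). Of 20 meiotic chromosome genes, 5 rose and 1 fell in brain (median 0.22), against 8.61% and 12.8% of tested genes. Among them were Smc1b at 1.04, Rad21l at 2.36, Msh5 at 0.80 and Syce3 at -0.84. Rad21l had low signal, with a mean of 3.66 log2 CPM in brain and 1.3 in the other organs. Its standard error was 0.64. Heart had 1 of the 20 lower (Sycp1, -1.21), against 1.97% of tested genes, and kidney 1 (Msh5, -1.35), against 0.566%. Liver had 1 lower (Stag3, -1.31), against 7.42%, and 2 higher (Hormad1 1.06 and Sycp1 0.62), against 11.8%. The difference between these lists was not tested.

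**Figure D5:**
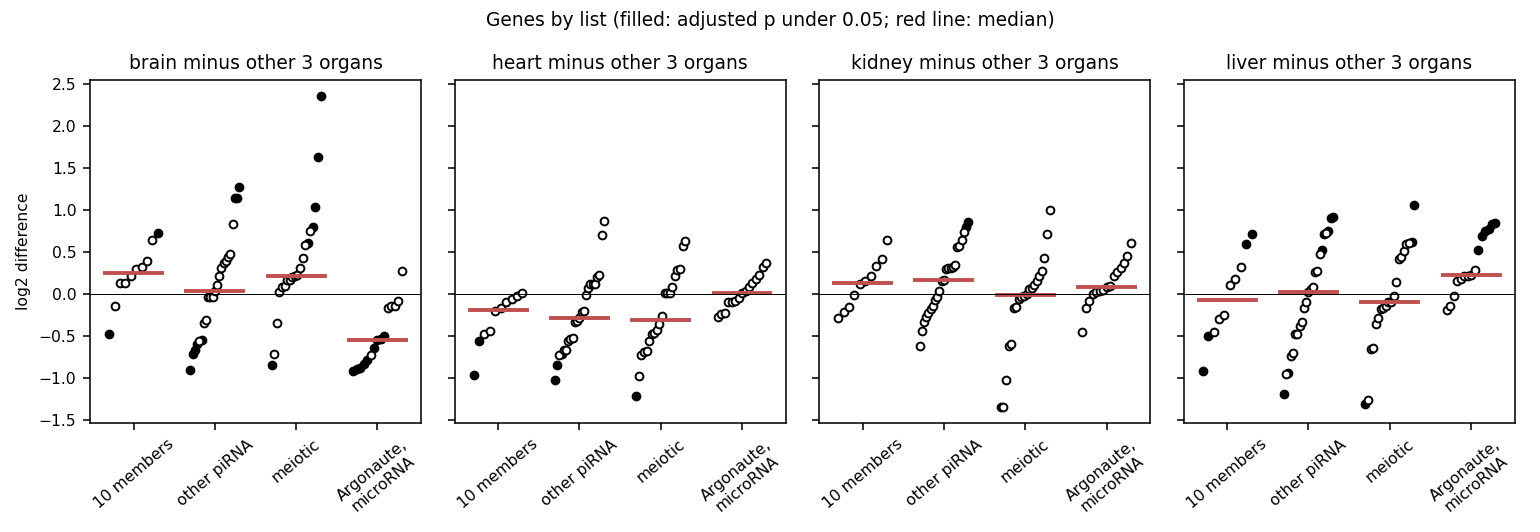
Log2 difference between 1 organ and the mean of the other 3 for the 10 piRNA genes, 23 further piRNA genes, 20 meiotic chromosome genes and 15 Argonaute and microRNA genes; each point is a gene, filled at an adjusted p under 0.05, and red lines are medians. In brain the median is 0.26 for the 10 genes and -0.55 for the Argonaute and microRNA genes.

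The average pattern of the 10 genes over the 8 libraries was set against 12006 genes of at least median signal. Members, and predicted genes, small RNAs and pseudogenes recognised by their symbols, were left out of these. The genes that followed the pattern most closely were Kctd19 (Pearson r = 0.967), Kdr (0.961), Cavin2 (0.956), Map3k20 (0.943) and Terb2 (0.939). The average pattern was high in brain and low in heart. Kctd19 and Terb2 act in meiosis, and Kdr, one of the endothelial markers above, encodes a receptor of vessel endothelium. Kdr had 7.23 and 7.11 log2 CPM in FFPE and frozen brain, 5.77 and 6.19 in heart, 6.82 and 6.85 in kidney and 6.34 and 6.67 in liver. The 5 were picked as the best of many over 8 libraries that share organs and scaling, so r only describes their likeness.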

How the data were processed

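DNA of 4 mouse organs, FFPE and frozen, was profiled by MeDIP-seq; the labels list 32 samples, 16 with the 5mC antibody and 16 Input. Per the submitters' processing notes, the authors aligned reads to mm10 with Bowtie2, counted them with featureCounts and used limma; the sources used here give no versions, settings, counted feature, strand or pooling of replicates. The deposited values are log2 CPM in 8 columns, 1 per organ and preservation. With 0.5 added per read count, all values stepped back to whole reads (tolerance 1e-04); recovered reads served for depth, counting intervals (exact Clopper-Pearson, 95%) and 3 alternatives. The authors' scaling factors were 0.851 to 1.10.

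The test took genes that reached 1 CPM in 2 or more libraries (25982; 1197 removed) with limma 3.58.1 in R 4.3.3, organ plus preservation, 3 residual and 13.1 prior degrees of freedom, variance trend, Benjamini-Hochberg adjustment, threshold 0.05. P-values measure spread between these libraries only, which may be technical. The fit was also run on simulated data with independent noise in each library and no differences but those put in. In these libraries many genes were called in brain and liver, so the simulation does not vouch for the calls above. Of 27179 genes, 93.0% matched RefSeq on GRCm38.p6, which gave positions, neighbours and promoters.

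Named are the 10 members; called genes of 3 related lists (up to 4 per comparison by smallest p, all for further piRNA genes); the overlapping or nearest genes; and the 5 genes most like the members' mean profile. Members and lists were chosen with earlier results of these data known. Alternatives changed the filter, scaling, weights, variance trend, covariates, offset and libraries; total-read scaling was added after seeing the data.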

Additional observations from a re-analysis of the deposited data

How the results depend on the processing

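Each of the 10 genes was re-tested in each of 5 comparisons under 19 alternatives, less the setting without both kidney libraries for the kidney comparison, where it cannot be run. Of these results, 862 kept their side of the threshold, and 24 became calls and 53 lost a call with direction kept. A change of direction was counted apart only where a call was made before or after it. There was 1 such result, Tdrd6 in brain under quantile normalization (0.01, limma adjusted p = 0.97), which also lost its call. Any change of direction among results without a call is within the 862. The causes were not tested.

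Members called higher in brain, 1 as reported, numbered 2 with array weights, voom weights or without both kidney libraries, 5 under quantile normalization, 3 with total reads (a scaling chosen after seeing the data) and 0 without the variance trend. Members lower in brain, 1 as reported, numbered 0 under quantile normalization, total reads or no trend. In heart the 2 lower members became 3 with centred libraries or array weights (Tdrd1 gained), 1 under quantile normalization or voom weights and 0 without filter, trend or the preservation term, or with total reads. In kidney 1 member was higher with voom weights, against 0. In liver the 2 higher members became 3 with centred libraries or without kidney (Tdrd9 gained), 1 without the preservation term and 0 without trend, under quantile normalization or with total reads, and the 2 lower members became 3 under quantile normalization, with total reads or without kidney (Piwil1 gained), and 0 without trend or with centred libraries. Leaving out 1 library gave 0 to 2 higher in brain, 0 to 1 in kidney and 0 to 3 in liver, and 0 to 1 lower in brain, 0 to 3 in heart and 0 to 3 in liver.

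Counts over all tested genes moved more. Genes higher in brain, 2238 as reported, numbered 3988 with array weights, 3499 with log2 of CPM plus 2, 3375 with total reads, 4097 with voom weights and 3737 without kidney. Genes lower in brain, 3333 as reported, numbered 1936 with total reads. In heart 42 were higher, which became 377 with array weights, 107 with CPM plus 2, 24 without filter, 64 with the stricter filter, 168 under quantile normalization, 236 with voom weights, 373 without kidney and 3 without the preservation term. The 513 lower in heart became 1248 with array weights, 859 centred, 165 with total reads, 938 without kidney and 105 without the preservation term. In kidney 233 were higher, which became 44 with array weights, 369 with CPM plus 2, 107 without filter, 127 with total reads, 831 with voom weights and 39 without the preservation term. The 147 lower in kidney became 7, 51 and 10 with array weights, without filter and without the preservation term. In liver 3056 were higher, which became 4832 centred, 1324 under quantile normalization, 1557 with total reads and 4687 without kidney. The 1929 lower in liver became 1240 centred, 3400 with total reads and 4697 without kidney. Without the trend all 8 organ counts were 0. Between FFPE and frozen tissue, 161 higher and 191 lower became 297 and 287 with array weights, 15 and 24 without trend, and 48 and 66 without the organ term. Leaving out 1 library gave 85 to 221 higher and 83 to 252 lower in FFPE. In brain it gave 92 to 4725 higher and 654 to 4433 lower, in heart 0 to 710 and 4 to 1393, in kidney 21 to 1522 and 3 to 2264, and in liver 975 to 3864 and 494 to 3398.

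No paired analysis was possible because the columns carry no replicate number by which to block; FFPE and frozen columns were matched by organ in the fit itself. With 41 to 200 reads in Asz1, Ddx4 and Mael in each library, depth limits these 3 genes most.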
